A study of Homo sapiens with 6 samples.

Results

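In HepG2 cells treated with oridonin, 10 genes that sit in the feedback loop around the kinase ERK were followed. They were chosen with earlier results of these data known and matched by symbol in the deposited annotation. All 10 were found among the 60504 genes of the count table and were tested, with 15116 genes tested in all. They are the dual-specificity phosphatase genes DUSP4, DUSP5 and DUSP6, the Sprouty genes SPRY2 and SPRY4, the SPRED genes SPRED1 and SPRED2, the ETS transcription factor genes ETV4 and ETV5, and PHLDA1. HepG2 is an established human liver carcinoma line. The study compared 3 RNA sequencing libraries of cells held for 48 h in 10 µM oridonin, a diterpenoid of the plant Isodon rubescens, with 3 libraries of cells held for 48 h in 0.1% DMSO, the solvent control. Whether oridonin wells also held DMSO is not stated. Nothing says that the 3 samples of a group were separate cultures, so the p-values reflect the scatter among these samples alone, and that scatter may be technical.

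ERK is the last kinase of the cascade that runs from growth factor receptors through RAS, RAF and MEK. When it is active it switches on genes whose products damp the same cascade, among them phosphatases that remove the activating phosphates from ERK and Sprouty and SPRED proteins that act higher up, at the level of RAS and RAF. ETV4 and ETV5 are transcription factors that lie downstream of the cascade, and transcripts of several of these genes are widely used as readouts of ERK output. HepG2 cells carry an activating mutation in NRAS. ERK activity itself was not measured here.

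Total counts were between 27674586 and 30739574 in the oridonin libraries and between 22250202 and 29352396 in the DMSO libraries, with DMSO library 1 the shallowest. The 8 hepatocyte markers examined were all tested, with 6 called lower and 0 higher, and summed to between 14800 and 16900 CPM in oridonin and between 25100 and 28400 CPM in DMSO, where CPM is the count per 1 M counts of a library after TMM scaling. Of 7 markers of B and plasma cells, MS4A1 was at 0 counts in every library, while the summed level was 33.4, 72.3 and 75.9 CPM in oridonin libraries 1 to 3 and 4.28, 11.1 and 16.7 CPM in DMSO libraries 1 to 3. The plasma cell gene IGHA1 had 7.97, 30.9 and 27.5 CPM in oridonin and 0.0456, 3.90 and 5.70 CPM in DMSO. Oridonin was thus above DMSO in every library for this list, and its part in the results below was not tested. Of 6 gut epithelium markers tested, 4 were called higher (PIGR, CDX1, CDX2 and MUC2) and 1 lower (VIL1). PIGR had 51, 157 and 158 counts in oridonin and 2, 9 and 9 counts in DMSO, a log2 fold change of 3.96 ± 0.75 (SE, edgeR adjusted p = 0.00732), while the list summed to between 296 and 309 CPM in oridonin and between 379 and 401 CPM in DMSO, nearly all of it VIL1. The fibroblast list (3 of 6 tested, COL1A1 higher and PDGFRB lower) summed to between 35.8 and 36.4 CPM in oridonin and between 58.9 and 68.6 CPM in DMSO. Most of that was PDGFRB, with a mean of 32.1 CPM in oridonin and 60.8 CPM in DMSO. COL3A1 and LUM, too low to be tested, were above DMSO in every oridonin library, and COL1A2 and DCN overlapped. The endothelial list (3 of 4 tested, PECAM1 higher and CDH5 lower) summed to between 7.87 and 8.73 CPM in oridonin and between 5.62 and 7.52 CPM in DMSO. Of the T cell list 1 of 4 genes was tested, CD3D, which was called higher, with sums between 2.86 and 3.58 CPM in oridonin and between 1.91 and 2.67 CPM in DMSO. Of the macrophage list 2 of 4 were tested, with LYZ lower and sums between 420 and 451 CPM in oridonin and between 679 and 712 CPM in DMSO. Nearly all of that was LYZ, with a mean of 433 CPM in oridonin and 694 CPM in DMSO. The part of these lists in the results was not tested.

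With oridonin, the feedback genes did not move as a block. DUSP5 and DUSP4, nuclear phosphatases, rose 4.13-fold and 3.03-fold, and SPRY4 and PHLDA1 rose 1.36-fold and 1.43-fold. ETV4 and ETV5 fell, to 0.813 and 0.872 of their DMSO level. DUSP6, SPRY2, SPRED1 and SPRED2 did not pass the test. In all, 4 of 10 genes were called higher and 2 of 10 lower at an edgeR adjusted p under 0.05, whereas 20.6% of all tested genes were called higher and 21.3% lower. Of the 10, DUSP4 and DUSP5 were called with a change of at least 2-fold, both higher, against 4.72% of all tested genes in either direction and 3.12% higher. The libraries of the groups did not overlap for 8 of the 10 genes, against 51.6% of all tested genes, with oridonin above for 5 (26.0% of all) and below for 3 (25.6% of all). With scaling to total counts alone, 5 of the 10 were called higher and 1 lower, against 29.7% and 15.6% of all tested genes, and 65.5% of all calls were higher, against 49.2% with TMM. The median log2 fold change was 0.07 over the 10 genes and 0.01 over all tested genes. In these bulk samples, a change in the number of cells that express a gene and a change in RNA per cell cannot be told apart.

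**Figure D1:**
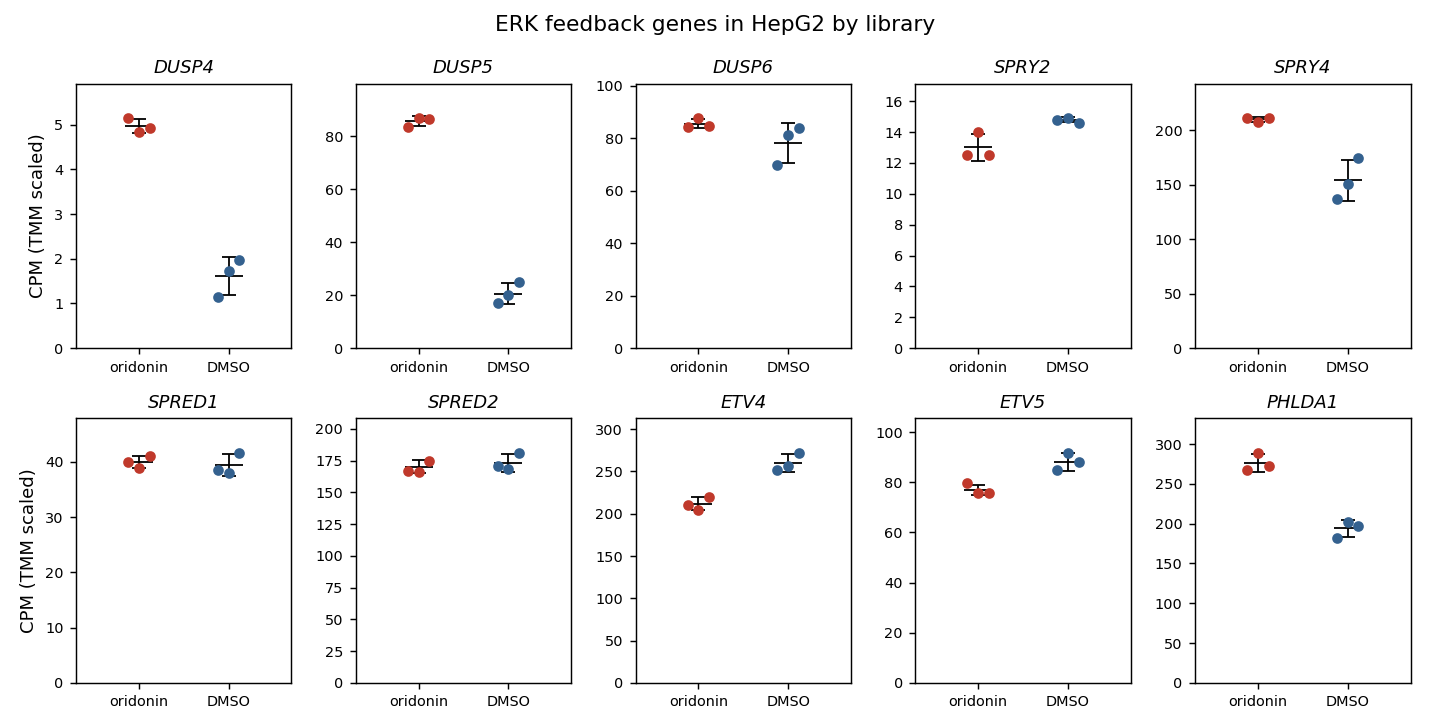
CPM (TMM scaled) of the 10 genes in each library, with 3 oridonin libraries left of 3 DMSO libraries in every panel, each axis starting at 0, and bars for the mean and SD. DUSP4 and DUSP5 lie far above DMSO in all 3 oridonin libraries, SPRED1 and SPRED2 overlap, and DUSP4, DUSP5, DUSP6 and SPRY4 scatter more in DMSO than in oridonin.

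DUSP5 encodes a nuclear phosphatase with a strong preference for ERK, and its gene (ENSG00000138166) lies at chr10:110497838-110511544 of hg38 on the plus strand. It had 83.4, 86.8 and 86.6 CPM in oridonin libraries 1 to 3, against 17.0, 20.0 and 24.9 CPM in DMSO libraries 1 to 3. The lowest oridonin library was more than 3 times the highest DMSO library, and within DMSO library 1 was low and library 3 high. This gave a log2 fold change of 2.05 ± 0.10 (SE, n = 3 per group, edgeR adjusted p = 2.17e-08), the 84th highest among the 15116 genes tested. The pseudogene DUSP5P1 had at most 51 counts in a library, against 2442 to 2675 counts of DUSP5 in oridonin and 373 to 681 in DMSO.

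DUSP4 encodes a nuclear phosphatase that acts on ERK and on the stress kinases p38 and JNK (ENSG00000120875, chromosome 8, 29333064 to 29350668, minus strand). Its level was low, at 5.15, 4.84 and 4.93 CPM in oridonin and 1.14, 1.72 and 1.97 CPM in DMSO, which rests on 139 to 164 counts in oridonin and 25 to 54 counts in DMSO. The groups were well apart, and DMSO library 1 was again the lowest. Its change on the log2 scale was 1.60 ± 0.17 (SE, n = 3 per group, edgeR adjusted p = 9.17e-07). Among the oridonin libraries, library 1 had the lowest summed B and plasma cell markers, 33.4 CPM, and the highest DUSP4 level, 5.15 CPM. In DMSO the order was the same for both, with these markers at 4.28, 11.1 and 16.7 CPM in libraries 1 to 3. Both were also higher in oridonin than in DMSO, and any tie between them was not tested.

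DUSP6 encodes a cytoplasmic phosphatase selective for ERK and is often used as the transcript readout of ERK activity (ENSG00000139318, chr12:89347232-89353271, minus strand). It had 84.3, 87.6 and 84.5 CPM in oridonin, against 69.6, 81.2 and 83.8 CPM in DMSO. The groups did not overlap, but only just, and most of the gap came from DMSO library 1. The log2 fold change of 0.13 ± 0.06 (SE, n = 3 per group) did not pass the test (edgeR adjusted p = 0.12), with a 95% interval from -0.01 to 0.26. It was called at 0.18 without DMSO library 3 (adjusted p = 0.0233) and was 0.05 without DMSO library 1 (adjusted p = 0.585). Because both genes were read in the same libraries, the ratio of DUSP5 to DUSP6 does not depend on library scaling. On FPKM, fragments per kilobase of gene per 1 M reads, from the deposited log2 values, DUSP5 stood at 1.77 ± 0.0285 times DUSP6 in oridonin and at 0.464 ± 0.0526 times in DMSO (SD, n = 3 each).

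Of 6 other MAP kinase phosphatase genes tested, 1 was called higher and 3 lower, against 20.6% of all tested genes higher and 21.3% lower. DUSP9, whose product is a cytoplasmic ERK phosphatase, was by far the most abundant per gene length and fell to 176 ± 7.51 FPKM in oridonin, against 271 ± 18.0 FPKM in DMSO (SD, n = 3 each). On the log2 scale this was a change of -0.64 ± 0.05 (SE, edgeR adjusted p = 4.66e-08). DUSP16 and DUSP8, which act on JNK and p38, fell at -0.46 ± 0.05 and -0.56 ± 0.11 (SE, edgeR adjusted p = 5.66e-07 and 0.00183). DUSP1, an immediate early gene, rose at 0.26 ± 0.08 (SE, edgeR adjusted p = 0.0126), a call lost without DMSO library 1 (0.19, adjusted p = 0.0584), DMSO library 2, oridonin library 3 or on log2 FPKM values. DUSP7 and DUSP10 were not called, at 0.02 ± 0.08 and -0.05 ± 0.15, and DUSP2 had 3 to 7 counts in oridonin and 0 to 2 in DMSO and was not tested.

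Summed over the 9 tested phosphatase genes, the FPKM level was 284 ± 10.2 in oridonin and 356 ± 25.4 in DMSO (SD, n = 3 each). DUSP5 made up 11.6% ± 0.322 of that sum in oridonin and 2.18% ± 0.28 in DMSO, and DUSP9 62.0% ± 0.739 in oridonin and 76.1% ± 0.381 in DMSO. DUSP4 stayed below 1 FPKM in every library, and made up 0.242% ± 0.012 of the sum in oridonin and 0.0614% ± 0.013 in DMSO.

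**Figure D2:**
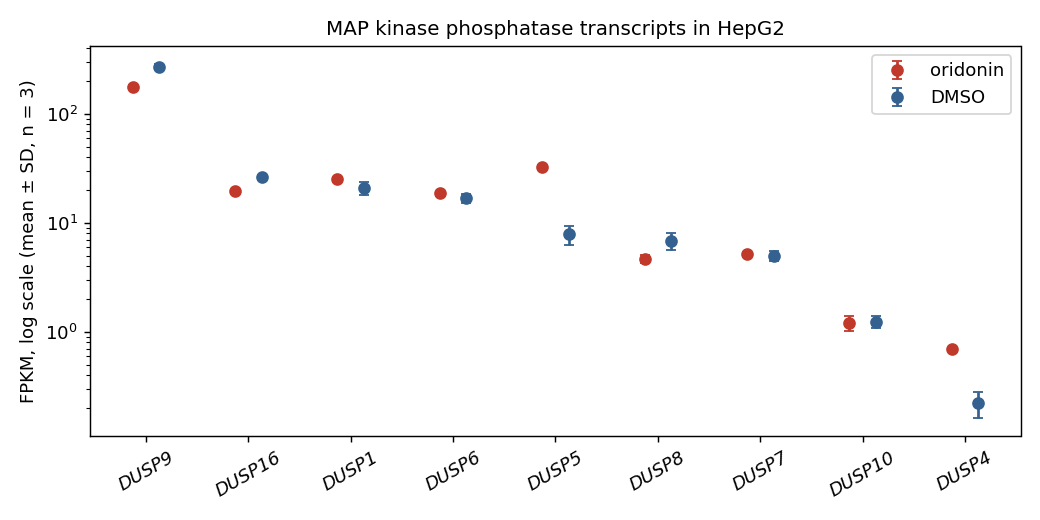
FPKM on a log axis (mean ± SD, n = 3) of the 9 tested MAP kinase phosphatase genes, oridonin left of DMSO for each gene, ordered by the DMSO level, with SD bars hidden by the points where short. DUSP9 leads in both groups, and DUSP5 stands at 32.8 FPKM in oridonin and 7.83 FPKM in DMSO.

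SPRY4 and SPRY2 encode Sprouty proteins, which receptor signalling induces and which hold back RAS and RAF. SPRY4 (ENSG00000187678, chr5:142310427-142326455, minus strand) had 211, 207 and 211 CPM in oridonin, against 137, 151 and 174 CPM in DMSO. The oridonin libraries were close together and above all DMSO libraries, of which library 1 was the lowest and library 3 the highest. SPRY4 rose on the log2 scale by 0.45 ± 0.07 (SE, n = 3 per group, edgeR adjusted p = 0.00015). An antisense gene inside its span, AC005592.2, had 7.24 CPM in oridonin and 5.28 CPM in DMSO and changed by 0.45 ± 0.12 (SE, edgeR adjusted p = 0.00715). The strand setting of the counting is not given in the sources used here, so reads of such pairs cannot be told apart.

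SPRY2 (ENSG00000136158, chr13:80335976-80340951, minus strand) had 12.5, 14.0 and 12.5 CPM in oridonin and 14.8, 14.9 and 14.6 CPM in DMSO. All oridonin libraries lay below DMSO, though library 2 came close. At a log2 fold change of -0.18 ± 0.08 (SE, n = 3 per group) it did not pass the test (edgeR adjusted p = 0.0809, unadjusted 95% interval from -0.35 to -0.01), and it was called without oridonin library 2 (-0.24, adjusted p = 0.0449). Within a library, SPRY4 was 8.28 ± 0.615 times SPRY2 on FPKM in oridonin and 5.34 ± 0.691 times in DMSO (SD, n = 3 each). The related SPRY1 fell to 50.5 ± 2.40 CPM in oridonin, against 61.7 ± 3.91 CPM in DMSO (SD, n = 3 each), a log2 fold change of -0.29 ± 0.06 (SE, edgeR adjusted p = 0.000995). SPRY3 had at most 8 counts in a library and was not tested.

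SPRED1 and SPRED2 encode proteins that recruit the RAS inhibitor neurofibromin to the membrane. SPRED1 (ENSG00000166068, chr15:38252326-38357249, plus strand) had 40.0, 38.9 and 41.1 CPM in oridonin and 38.5, 38 and 41.6 CPM in DMSO. SPRED2 (ENSG00000198369, chr2:65310851-65432637, minus strand) had 167, 166 and 175 CPM in oridonin and 171, 168 and 181 CPM in DMSO. The groups overlapped for both genes. The log2 fold changes were 0.02 ± 0.06 (95% interval from -0.11 to 0.15, edgeR adjusted p = 0.8) and -0.03 ± 0.05 (95% interval from -0.14 to 0.07, edgeR adjusted p = 0.641, SE, n = 3 per group). With scaling to total counts SPRED2 was at 0.05, and without DMSO library 2 SPRED1 was at -0.01, neither called.

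SPRED3, the third gene of that family, rose. It had 3.98 ± 0.108 CPM in oridonin and 0.887 ± 0.321 CPM in DMSO (SD, n = 3 each), from 115 to 127 counts in oridonin and 13 to 35 counts in DMSO. Its log2 fold change of 2.12 ± 0.20 (SE, edgeR adjusted p = 3.13e-07) stood beside 2.05 for DUSP5. NF1, which encodes neurofibromin, fell at -0.30 ± 0.07 (SE, edgeR adjusted p = 0.00253).

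ETV4 was the most abundant of the 10 genes per length in both groups (ENSG00000175832, chr17:43527844-43579620, minus strand). It had 210, 205 and 220 CPM in oridonin and 252, 257 and 272 CPM in DMSO, with every oridonin library below every DMSO library. ETV4 changed by -0.30 ± 0.05 on the log2 scale (SE, n = 3 per group, edgeR adjusted p = 0.000111). Its span overlaps DHX8 on the opposite strand, which had 82.2 CPM in oridonin and 85.8 CPM in DMSO and was not called (edgeR adjusted p = 0.39). Apart from DHX8, DGKG and AC005592.2, genes that overlap any of the 10 were under 0.2 CPM in both groups.

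ETV5 (ENSG00000244405, chr3:186046308-186110318, minus strand) had 79.5, 75.6 and 75.7 CPM in oridonin and 84.8, 91.7 and 87.9 CPM in DMSO, and the groups did not overlap. ETV5 changed by -0.20 ± 0.05 on the log2 scale (SE, n = 3 per group, edgeR adjusted p = 0.00568), and with scaling to total counts it was -0.12 and not called (adjusted p = 0.0826). The overlapping gene DGKG, on the same strand, rose at 0.50 ± 0.09 (SE, edgeR adjusted p = 0.000174), opposite in direction to ETV5. The ratio of ETV4 to ETV5 on FPKM was 4.43 ± 0.206 in oridonin and 4.75 ± 0.247 in DMSO (SD, n = 3 each). SPRY4 was 0.604 ± 0.0157 of ETV4 in oridonin and 0.36 ± 0.0287 in DMSO (SD, n = 3 each). The third gene of the PEA3 group, ETV1, had at most 9 counts in a library and was not tested.

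PHLDA1 encodes a pleckstrin homology-like protein that growth factors and stress induce (ENSG00000139289, chr12:76025447-76033932, minus strand). It had 267, 289 and 273 CPM in oridonin, against 182, 202 and 197 CPM in DMSO, and the groups were clearly apart. PHLDA1 rose on the log2 scale by 0.51 ± 0.05 (SE, n = 3 per group, edgeR adjusted p = 6.07e-07). Its relatives moved the same way: PHLDA2 rose to 38.5 ± 3.56 CPM in oridonin, against 18.8 ± 4.92 CPM in DMSO, and PHLDA3, a p53 target, to 90.7 ± 5.98 CPM in oridonin, against 65.6 ± 3.80 CPM in DMSO (SD, n = 3 each). Their log2 fold changes were 1.03 ± 0.17 and 0.47 ± 0.06 (SE, edgeR adjusted p = 0.00232 and 9.62e-06).

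**Figure D3:**
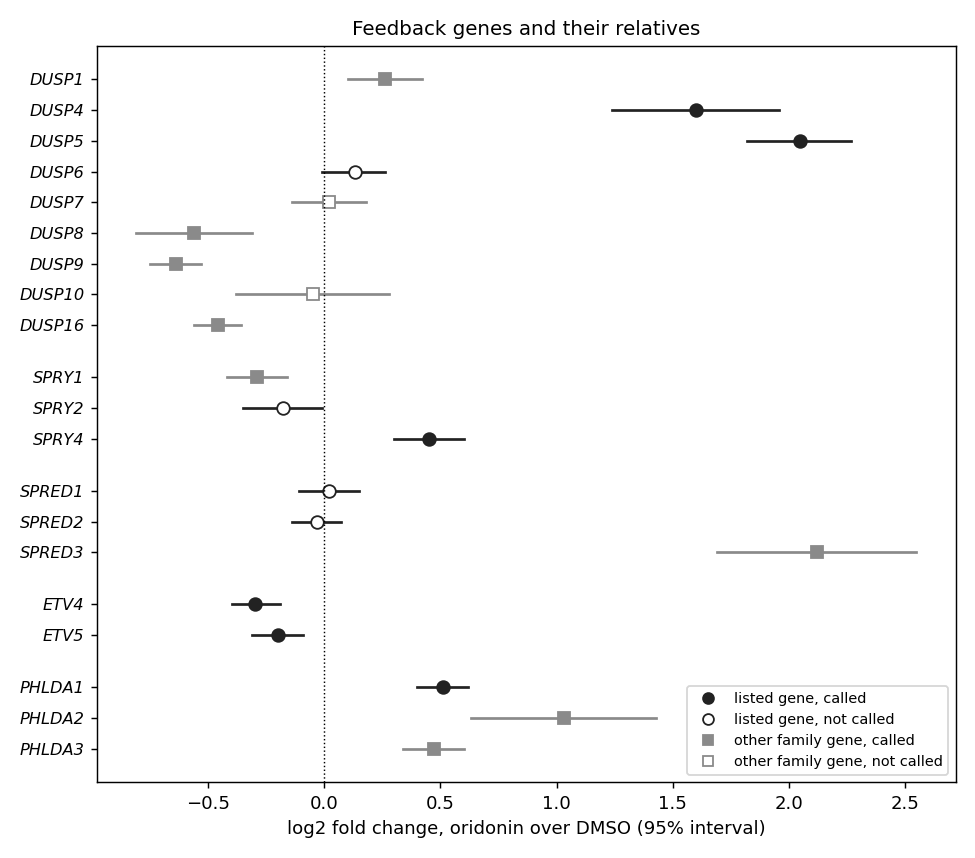
Log2 fold change, oridonin over DMSO, with its 95% interval for the 10 genes (circles) and other tested genes of the same families (squares), filled where the edgeR adjusted p was under 0.05. Each of the phosphatase, Sprouty and SPRED families holds genes on both sides or at 0, with DUSP5 at 2.05, SPRED3 at 2.12 and DUSP9 at -0.64.

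Per gene length, the order of the 10 genes in oridonin was ETV4 at 58.9 FPKM, then SPRY4, PHLDA1, SPRED2 and DUSP5 between 35.6 and 32.8 FPKM, DUSP6 at 18.6, ETV5 at 13.3, SPRED1 at 4.87, SPRY2 at 4.31 and DUSP4 at 0.688 FPKM. The 4 genes from SPRY4 to DUSP5 had overlapping ranges between neighbours in that order. In DMSO the order was ETV4 at 71.6 FPKM, SPRED2 at 33.4, SPRY4 at 25.8, PHLDA1 at 23.8, DUSP6 at 16.8, ETV5 at 15.1, DUSP5 at 7.83, SPRY2 at 4.83, SPRED1 at 4.74 and DUSP4 at 0.221 FPKM. There SPRY4 overlapped PHLDA1, DUSP6 overlapped ETV5 and SPRY2 overlapped SPRED1. DUSP5 changed its place: below DUSP6 and ETV5 in DMSO, it stood above both in oridonin.

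RefSeq promoter windows (GRCh38.p14, 250 bases before to 50 after the RefSeq start, which need not be the outer end of the deposited gene) were at hand for 6 of the 10 genes. Those of SPRY4 and PHLDA1, which rose, and of DUSP6 and SPRY2, which were not called, are shown so that the letters around the start can be compared. Capitals mark the ETS core CCGGAA, read as TTCCGG where it lies on the other strand, and lower case is the rest.

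SPRY4 promoter (chr5:142324198-142324497, minus strand): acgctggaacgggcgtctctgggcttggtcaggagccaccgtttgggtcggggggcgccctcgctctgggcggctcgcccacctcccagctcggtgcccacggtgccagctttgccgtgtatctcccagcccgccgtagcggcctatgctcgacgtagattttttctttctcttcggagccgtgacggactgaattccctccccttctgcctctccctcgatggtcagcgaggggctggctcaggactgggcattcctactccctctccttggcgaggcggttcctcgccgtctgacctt
PHLDA1 promoter (chr12:76031727-76032026, minus strand): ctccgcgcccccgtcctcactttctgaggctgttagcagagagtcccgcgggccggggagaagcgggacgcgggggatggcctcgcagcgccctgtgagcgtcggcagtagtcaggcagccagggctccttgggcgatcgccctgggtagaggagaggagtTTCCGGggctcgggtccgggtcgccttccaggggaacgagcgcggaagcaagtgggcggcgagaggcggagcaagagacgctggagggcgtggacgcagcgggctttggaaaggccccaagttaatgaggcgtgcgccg
DUSP6 promoter (chr12:89352452-89352751, minus strand): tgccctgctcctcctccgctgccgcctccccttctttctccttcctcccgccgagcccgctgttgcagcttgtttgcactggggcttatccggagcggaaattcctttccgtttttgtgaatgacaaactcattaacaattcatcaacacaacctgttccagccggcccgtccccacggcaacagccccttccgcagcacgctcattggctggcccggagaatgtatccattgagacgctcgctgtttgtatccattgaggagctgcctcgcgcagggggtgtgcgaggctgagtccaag
SPRY2 promoter (chr13:80341077-80341376, minus strand): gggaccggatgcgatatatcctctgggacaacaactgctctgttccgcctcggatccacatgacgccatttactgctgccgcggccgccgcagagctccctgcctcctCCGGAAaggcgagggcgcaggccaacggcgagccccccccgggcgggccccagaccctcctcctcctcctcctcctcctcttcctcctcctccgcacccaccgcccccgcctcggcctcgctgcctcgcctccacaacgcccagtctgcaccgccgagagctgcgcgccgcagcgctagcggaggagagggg

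Exact matches to CCGGAA on either strand were found in 2 of the 6 windows, PHLDA1 (first base at -89 from the start) and SPRY2 (at -142), and in 17.2% of 35116 RefSeq promoters. A second ETS core, CAGGAA, was found in 1 of 6 windows, that of SPRED1 (at -16), and in 28.4% of all promoters. Of the octamers bound by the repressor CIC, only TGAATGAA and TGAATGGA were searched. They were in none of the 6 windows and in 1.65% and 1.03% of all promoters. Other forms of the CIC octamer were not searched, so the windows, that of DUSP6 included, may hold them. The AP-1 site TGANTCA, the cyclic AMP element TGACGTCA and the CArG box of serum response factor were also in none of the 6 windows. They were in 7.71%, 1.85% and 1.29% of all promoters. The 2 ETS cores share the letters GGAA but cannot be the same match. The first ETS core was thus in the window of PHLDA1, which rose, and of SPRY2, which was not called.

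The genes next to the 10 loci were also read. Of the 20 nearest tested genes that do not overlap them, 8 were called, 4 higher and 4 lower, or 40.0% against 41.9% of all tested genes called in either direction. PHLDA1 rose while NAP1L1, a histone chaperone gene 2.7 kb away, fell at -0.46 ± 0.05 (SE, edgeR adjusted p = 7.64e-07). DUSP5 stood between SMNDC1, which was not called at 0.04 ± 0.07, and SMC3, a cohesin subunit gene that fell at -0.29 ± 0.06 (SE, edgeR adjusted p = 0.000484). These 3 neighbours were picked after their values were seen.

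Of 15 other genes known to respond to ERK, a list chosen with earlier results of these data known, 10 were called higher, against 20.6% of all tested genes (29.7% with total counts), and none lower, against 21.3% (by edgeR, with no gene lower at an unadjusted p under 0.05 either, and 1 called lower in 3 of the alternatives), with a median log2 fold change of 0.39. PLAUR, the urokinase receptor, rose at 2.14 ± 0.10, the ETS factor gene ELK3 at 1.26 ± 0.06 and the AP-1 subunit gene FOSL1 at 1.05 ± 0.10 (SE, edgeR adjusted p = 9.29e-11, 7.07e-11 and 5.62e-06). FOSL1 had 81.0 ± 6.63 CPM in oridonin and 39.1 ± 5.91 CPM in DMSO (SD, n = 3 each). CCND1, the cyclin D1 gene, was not called, at 0.01 ± 0.05.

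Upstream of ERK, 11 receptor tyrosine kinase genes were tested (EPHA2 is also among the ERK-responsive genes), and 2 were called higher and 6 lower, against 20.6% and 21.3% of all tested genes, with a median of -0.32. EGFR rose to 22.5 ± 1.18 CPM in oridonin, against 6.08 ± 0.313 CPM in DMSO, and MET to 143 ± 3.06 CPM in oridonin, against 121 ± 2.31 CPM in DMSO (SD, n = 3 each). ERBB3 fell to 182 ± 10.0 CPM in oridonin, against 360 ± 6.72 CPM in DMSO, and ERBB2 and FGFR1 fell at -0.66 ± 0.05 and -0.60 ± 0.05 (SE). The edgeR adjusted p of these 5 genes was at most 0.000536.

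Of 21 tested genes from adaptors to ERK and its kinase targets, 3 were called higher and 7 lower, or 47.6% called, near the 41.9% of all tested genes. The median was -0.01, and with scaling to total counts 6 were higher and 4 lower. The adaptor gene SHC1 rose at 0.43 ± 0.06 and MAP2K1, which encodes MEK1, at 0.25 ± 0.06, while MAPK3, which encodes ERK1, fell at -0.37 ± 0.06 (SE, edgeR adjusted p at most 0.00146). RPS6KA3, the gene of the ERK-activated kinase RSK2, fell at -0.76 ± 0.05 to 439 ± 19.1 CPM in oridonin, against 744 ± 49.9 CPM in DMSO (SD, n = 3 each). KSR1, a scaffold of the cascade, fell at -0.27 ± 0.06 (SE, edgeR adjusted p = 0.000805). RPS6KA1, the RSK1 gene, rose at 0.19 ± 0.05 (SE, edgeR adjusted p = 0.0105), a call lost without DMSO library 2 (0.17, adjusted p = 0.0627). NRAS was not called, at 0.01 ± 0.05.

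Among 13 other brakes on receptor and RAS signalling, 4 were called higher and 4 lower, against 20.6% and 21.3% of all tested genes, with a median of 0.03. RASAL2, a RAS GTPase activator, rose at 0.52 ± 0.06 and IL17RD, a membrane inhibitor of growth factor signalling, at 0.97 ± 0.21, while LRIG3 fell at -0.49 ± 0.09 (SE, edgeR adjusted p at most 0.00152). LZTR1, which takes part in the breakdown of RAS proteins, rose at 0.29 ± 0.06, and PEBP1, a RAF inhibitor, fell at -0.23 ± 0.05 (SE, edgeR adjusted p = 0.000653 and 0.00163). Of 10 genes for CIC, ETS repressors and the turnover of ETV proteins, 1 was called higher and 1 lower, or 20.0% called against 41.9% of all tested genes. These were ETV3, at 0.24 ± 0.07, and ERF, an ETS repressor that ERK inactivates, at -0.34 ± 0.08 (SE, edgeR adjusted p = 0.00726 and 0.00285). Of 8 p38 and JNK cascade genes, 2 were called higher and 3 lower, or 62.5% called against 41.9% of all tested genes, with MAP2K6, the gene of a p38 kinase, lowest at -1.25 ± 0.12 (SE, edgeR adjusted p = 4.58e-07). MAPK9, the JNK2 gene, was at -0.39 ± 0.06 and MAPK14, the p38 alpha gene, at -0.19 ± 0.05, not called with total counts (-0.11, adjusted p = 0.109). MAP2K4 rose at 0.25 ± 0.06 (SE, edgeR adjusted p = 0.00473). MAP3K5 was at 1.30 ± 0.43 (SE, edgeR adjusted p = 0.0228), from 11 to 15 counts in oridonin and 4 to 5 in DMSO, and lost its call in 5 alternatives, among them without oridonin library 2 (adjusted p = 0.0888), DMSO library 2 (0.101) or DMSO library 3 (0.0843).

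**Figure D4:**
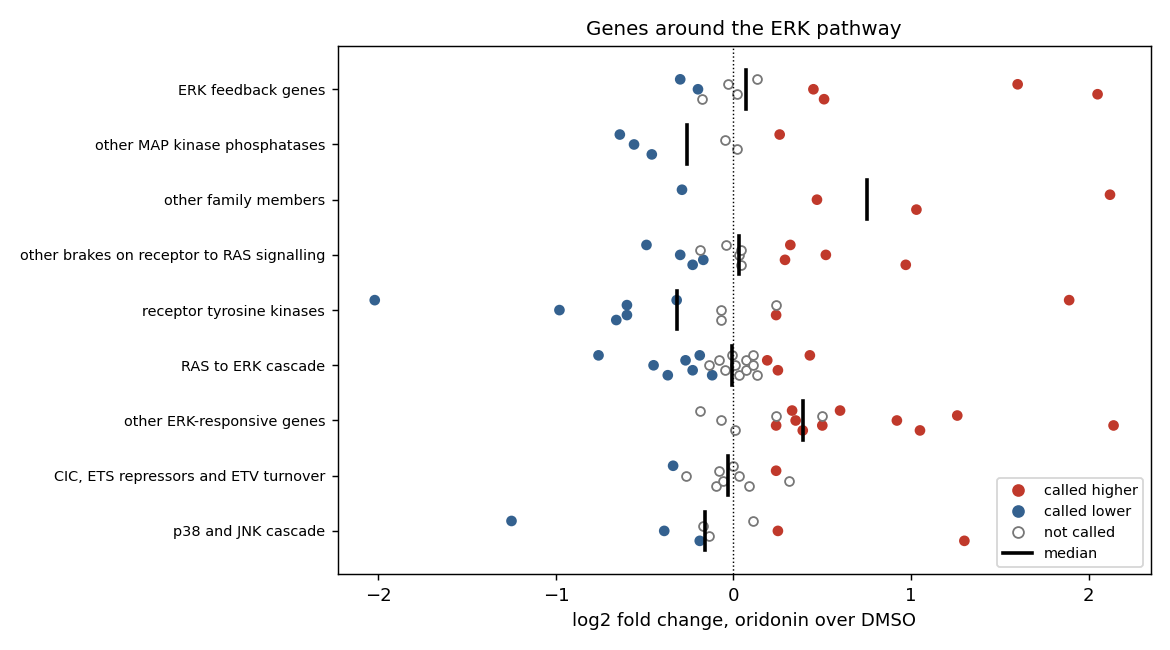
Log2 fold change, oridonin over DMSO, of each tested gene around the ERK pathway by list, coloured where called, with a black bar at the list's median. The other ERK-responsive genes have a median of 0.39 and no call below 0, and the receptor genes have a median of -0.32.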

How the data were processed

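Total RNA was extracted from each sample and made into Illumina libraries, per the labels. The submitters' processing notes name build hg38 and DESeq2 1.10.1. No aligner, counter or strandedness is given in the sources used here. The authors deposited raw counts per gene, whole numbers for 60504 genes, and log2 FPKM values for the 18404 genes with a count in every library. Columns were tied to libraries by the description label.

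Counts were tested with edgeR 4.0.16 in R 4.3.3 (filterByExpr, TMM, robust glmQLFit, glmQLFTest, treatment as the only term), with Benjamini-Hochberg adjustment over 15116 genes and calls at an adjusted p under 0.05. The SE is the log2 fold change divided by the square root of F, and intervals are 95% and unadjusted. FPKM, taken back from log2 with no pseudocount, served for levels between genes. No molecular identifiers are named, so reads are not independent molecules. Alternatives used other scaling, filters, DESeq2 1.42.0, limma 3.58.1 on voom and on log2 FPKM values, a replicate block, and 1 library left out.

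The 10 genes and the pathway lists were chosen with earlier results of these data known. All 10 genes are described, and from each list up to 3 called genes per direction with the smallest p. CCND1, NRAS, DUSP7, DUSP10 and untested family genes fall outside that rule and were named after their values were seen. Overlapping genes were looked up for the 10 genes only. Of the 5 genes most like DUSP6 by correlation, 1 is not reported here. Sequences of proteins were not used here.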

Additional observations from a re-analysis of the deposited data

How the results depend on the processing

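Over 15 alternatives, the 6 called genes kept their direction. DUSP4 (1.42 to 1.76), DUSP5 (1.93 to 2.20), SPRY4 (0.36 to 0.54), ETV4 (-0.33 to -0.22) and PHLDA1 (0.46 to 0.59) also stayed called in every one, and ETV5 in 14. Scaling to total counts, which raised the median of all genes to 0.09, left ETV5 at -0.12 and uncalled, called DUSP6 at 0.21, turned SPRED2 to 0.05 (adjusted p = 0.443) and gave 1 of the 10 genes lower in place of 2. That scaling called 4487 genes higher and 2359 lower, 65.5% of calls upward against 49.2% with TMM. Leaving out 1 library at a time gave DUSP6 values from 0.05 to 0.18, SPRY2 values from -0.24 to -0.15 and SPRED1 values from -0.01 (without DMSO library 2) to 0.06, with 4 to 5 of the 10 genes called higher and 2 to 3 lower. The cause was not tested.

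The labels tie equal replicate numbers to no shared batch, and same-numbered libraries deviated with r = 0.194, 0.065 and 0.173 over genes, each the highest of its library, which is a hint from the data and not the design. With the replicate block, DUSP6 (0.13, adjusted p = 0.0153) and SPRY2 (-0.18, adjusted p = 0.0465) were called, and 7689 genes were called in place of 6332. DUSP4 and SPRED3 rest on few counts in DMSO, at most 54 and 35 in a library.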

Other observations

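The spread among DMSO libraries was uneven over the feedback genes. The SD of log2 CPM in DMSO was at least 4 times that in oridonin for DUSP4, DUSP5, DUSP6 and SPRY4, 4 of the 10 genes, against 6.52% of all tested genes. The same held for 3 of the 15 other ERK-responsive genes, or 20.0%. The DMSO SD was 0.393 for DUSP4, 0.275 for DUSP5, 0.143 for DUSP6 and 0.175 for SPRY4, and the median was 0.07 over tested genes averaging 10 CPM or more. In oridonin the SD of these 4 genes was 0.046, 0.033, 0.031 and 0.015. DUSP4 lies below the 10 CPM of that median. SPRY2 went the other way, with an SD of 0.094 in oridonin and 0.016 in DMSO, and the DMSO SD was 1.11 to 1.84 times the oridonin SD in the other 5 genes.

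In 5 of the 10 genes (these 4 and ETV4) and in 10 of the 15 other ERK-responsive genes, DMSO library 1 was lowest and library 3 highest, against 20.2% of all tested genes. EGR1, an immediate early gene, had 145, 149 and 158 CPM in oridonin and 85.1, 96.3 and 138 CPM in DMSO, and was not called for a log2 fold change of 0.50 ± 0.20 (SE, n = 3 per group, edgeR adjusted p = 0.112). The summed B and plasma cell markers were also lowest in DMSO library 1 and highest in library 3, at 4.28 and 16.7 CPM, and library 1 was the shallowest. The part of either in the spread was not tested. These patterns and EGR1 were picked after the values were seen.

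By Pearson's r of log2 CPM over the 6 libraries, given as a description, genes most like DUSP6 among 9232 included NGDN (0.978), PRR15 (0.976), IGHA1 (0.973) and TRIM27 (0.967). Only genes averaging at least 10 CPM were compared, which leaves out DUSP4. IGHA1 met this level only through oridonin, with a mean of 22.1 CPM there and 3.21 CPM in DMSO, and had 1 count in DMSO library 1. Of the other 8 feedback genes, SPRY4 came closest at 0.835, and ETV4 was at -0.486. IGHA1 is a gene of plasma cells, and the 6 libraries fall into 2 treatment groups.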
